A study of Arabidopsis thaliana with 12 samples.

Results

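The 6 genes described here encode transcription factors of the plant GRAS family in Arabidopsis thaliana: SCL13 (AT4G17230), PAT1 (AT5G48150), SCL1 (AT1G21450), SCL5 (AT1G50600), SCL21 (AT2G04890) and SCL14 (AT1G07530). They were taken from the table by gene identifier, and all 6 are among the 20972 genes with deposited values. RNA-Seq was used to follow the response of 5-day-old wild-type Col seedlings, grown in 0.5× MS liquid medium, to externally added H2O2. The groups were seedlings given distilled water (0 min) and seedlings given 1 mM H2O2 for 2, 4 or 8 min, with 3 replicates each and 12 libraries in all. The material of a time point came from whole seedlings, some 100 to 150 of them, so that each value is an average over many plants and all their tissues. No water-treated seedlings frozen later than 0 min were analysed, so the effect of H2O2 and that of the minutes after liquid was added cannot be told apart.

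GRAS proteins act mostly as partners of DNA-binding factors rather than by binding DNA alone. PAT1 and SCL21 are positive regulators of phytochrome A signaling, the response to far-red light, and SCL13 acts mainly downstream of phytochrome B, the red light receptor. PAT1, SCL5 and SCL21 also work with the ethylene response factor ERF115 in regeneration after wounding. SCL14 belongs to a different branch of the family and joins class II TGA factors to activate genes that detoxify foreign or reactive compounds.

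All 6 transcripts were detected in each library. A normalized count is the number of reads on a gene divided by a size factor that evens out the libraries, and the reads behind each value lay between 157 and 296 for SCL21 and between 408 and 1818 for the other 5 genes. Counting error alone was therefore between 2.78% and 7.23% of a value, averaged over the libraries of a time point. The 12 libraries held between 13558388 and 26618274 reads on genes, and replicates of a time point correlated at 0.984 to 0.991 on the log2 scale. The deepest library was replicate 2 at 8 min. Markers of leaf cells (RBCS1A, CAB2), root hairs (EXP7, COBL9), endodermis (CASP1) and guard cells (MYB60, FAMA) were read in each library and none was at 0 in any of them. In whole seedlings, fewer cells of a type and less RNA per cell cannot be told apart.

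None of the 6 transcripts was significantly enhanced or lowered at 2, 4 or 8 min. SCL13, SCL5 and SCL14 had the largest differences at 8 min of H2O2, 1.15-fold to 1.22-fold above 0 min, and PAT1 was at 0.898-fold. The count was 0 of 6 at each time with limma on log2(normalized count + 1) at an adjusted p of 0.05, and 0 of 6 with DESeq2 and with edgeR on the reads recovered from the deposited values. Over all 19485 genes tested, limma called 0% higher and 0% lower at 2 min, 0.754% higher and 0.0565% lower at 4 min, and 1.29% higher and 0.0513% lower at 8 min. DESeq2 called 0.272% higher and 0.216% lower at 2 min, 1.89% and 0.642% at 4 min, and 1.92% and 0.4% at 8 min, and edgeR called 0% and 0%, 0.667% and 0.0411%, and 1.34% and 0.0616% at these times. All of these comparisons share the same 3 libraries at 0 min.

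Without adjustment for the number of genes, 0 of the 6 had p under 0.05 at 2 min, where 6.36% of all genes were higher and 5.68% lower, and 0 of the 6 did at 4 min, where 8.6% were higher and 7.02% lower. At 8 min 3 did, SCL13, SCL5 and SCL14, each with the higher value in H2O2, where 8.03% of all genes were higher and 5.69% lower by the same rule. In the F test for any difference among the 4 time points, 2 of 6 had an unadjusted p under 0.05 (SCL13 and SCL5), against 10.8% of all genes, and 0 of 6 passed after adjustment, against 1.03% of all genes. The smallest adjusted p of that test was 0.169 in limma, for SCL13. After 2, 4 and 8 min the median log2 change of the 6 genes was 0.05, 0.06 and 0.19, and that of all genes tested was -0.00, -0.01 and -0.00. From the 5th to the 95th percentile, the log2 changes of all genes at 8 min ran from -0.35 to 0.41, a range that holds all 6 values.

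**Figure D1:**
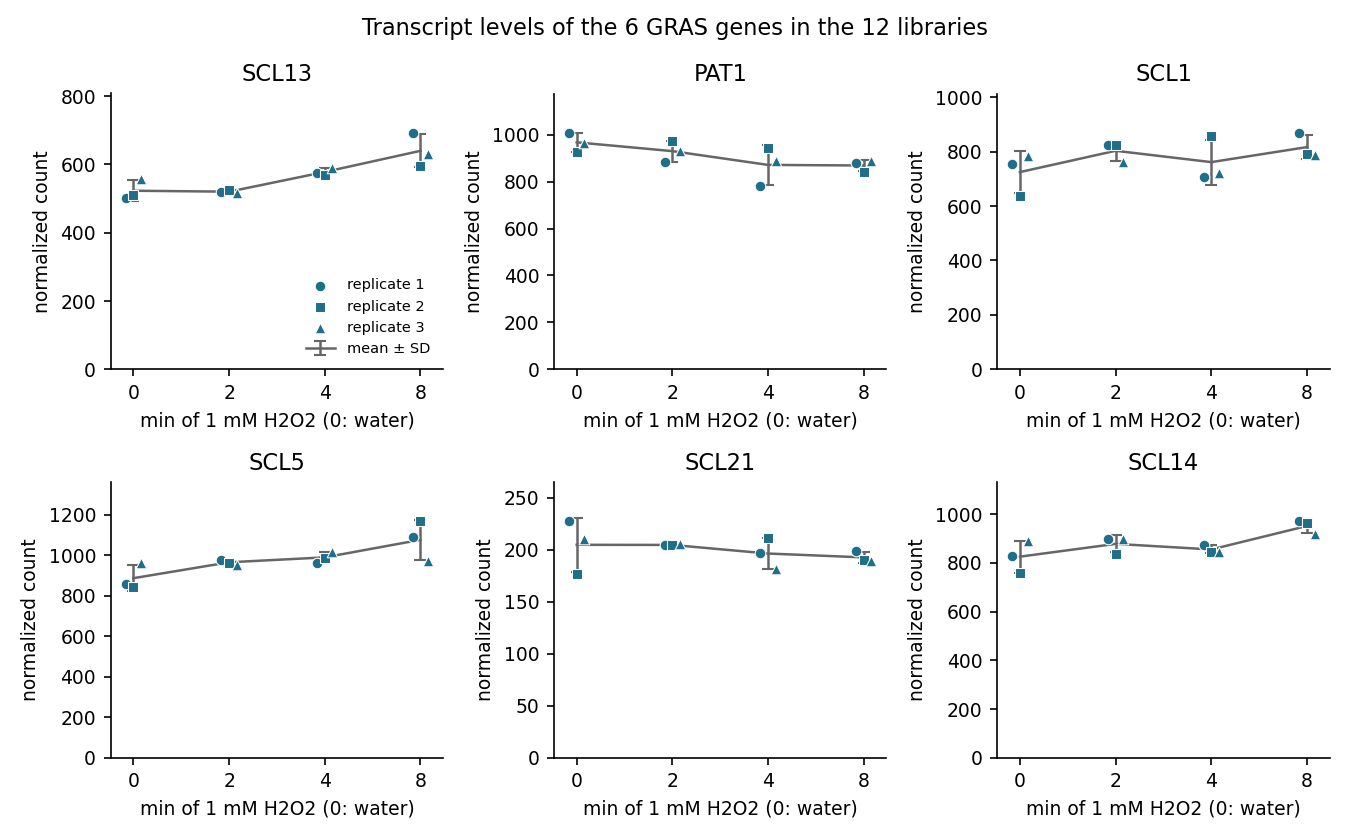
Normalized counts (linear axis from 0) of the 6 GRAS genes at 0 min (water) and after 2, 4 and 8 min of 1 mM H2O2, with time points drawn at equal spacing; each point is 1 library, shaped by replicate number, and lines join the means with their SD (n = 3). Within each gene the highest library was between 1.28 and 1.38 times the lowest.

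SCL13, the regulator that acts downstream of phytochrome B, had 501, 509.7 and 558 normalized counts in water (0 min), 520, 525 and 515 after 2 min, 575, 568 and 591 after 4 min, and 692, 596 and 631 after 8 min of H2O2. The 3 libraries at 8 min and the 3 at 4 min lay above all 3 at 0 min, and those at 2 min fell inside their range. Across the whole table, 8.56% of genes had all 3 libraries at 8 min above all 3 at 0 min, and 10.5% did at 4 min, while 9.5% had all 3 libraries at 4 min below. The mean was 640 ± 48.5 normalized counts at 8 min and 523 ± 30.4 at 0 min (SD, n = 3 each). This was a log2 change of 0.29 with a standard error of 0.07 and a 95% interval from 0.13 to 0.45, which missed the threshold in limma (adjusted p = 0.0817). In fold terms the interval ran from 1.10 to 1.36.

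The SCL13 difference was also set against the first minutes of the treatment itself. Between 8 and 2 min of H2O2 the log2 change of SCL13 was 0.30, with an adjusted p of 0.146 in limma. Of the 6 genes, SCL13 alone had an unadjusted p under 0.05 in this comparison, where 3.94% of all genes were higher and 1.8% lower by that rule. After adjustment 0 of 6 passed, against 0.626% of all genes higher and 0.0103% lower. Between 4 and 2 min the log2 change of SCL13 was 0.15, and between 8 and 4 min it was 0.14, neither of them past the threshold in limma (adjusted p = 1.00 for each).

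SCL5, which acts with PAT1 and SCL21 in regeneration, had 857, 843 and 961 normalized counts in water (0 min), 979, 963 and 954 after 2 min, 963, 988 and 1018 after 4 min, and 1089, 1167 and 973 after 8 min of H2O2. All 3 libraries at 4 min and at 8 min were above those at 0 min, by a narrow margin in both cases: replicate 3 at 0 min was close to the lowest libraries treated with H2O2. The log2 change at 8 min was 0.28 (95% interval from 0.11 to 0.44), and the adjusted p was 0.118 in limma and 0.066 in DESeq2.

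SCL14, the partner of class II TGA factors, had 829.5, 758 and 888 normalized counts in water (0 min), 896, 837 and 899.6 after 2 min, 874, 844 and 846 after 4 min, and 969.8, 964 and 919 after 8 min of H2O2. Its 3 libraries at 8 min lay above all 3 at 0 min, and those at 2 and 4 min did not separate from 0 min. The log2 change at 8 min was 0.21, with a 95% interval from 0.06 to 0.36 and an adjusted p of 0.205 in limma.

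SCL1, a further member of the PAT1 branch, had 753, 638 and 784 normalized counts in water (0 min), 826, 823 and 761 after 2 min, 706, 856 and 722 after 4 min, and 869, 793 and 788 after 8 min of H2O2. The libraries at 8 min were above those at 0 min by a small margin, since replicate 3 at 0 min nearly reached the lowest of them. The 95% interval of the log2 change at 8 min, from -0.03 to 0.38 around 0.18, included 0 (limma, adjusted p = 0.434). With SCL13, SCL5 and SCL14, 4 of the 6 genes thus had all 3 libraries at 8 min above all 3 at 0 min, an arrangement that 8.56% of all genes showed.

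PAT1, the phytochrome A regulator that gives the branch its name, had 1008, 928 and 966 normalized counts in water (0 min), 886, 975 and 930.03 after 2 min, 780.4, 945 and 889 after 4 min, and 878, 840.5 and 888 after 8 min of H2O2. It was the only gene of the 6 whose 3 libraries at 8 min all lay below those at 0 min, an arrangement that 8.23% of all genes showed. The log2 change was -0.15 at 8 min (95% interval from -0.32 to 0.01), and limma gave an adjusted p of 0.394. At 4 min the log2 change had the same size, -0.15, with libraries that overlapped those at 0 min, since replicate 2 at 4 min lay inside their range.

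SCL21, the other phytochrome A regulator, was the least abundant of the 6. It had 227, 176 and 211 normalized counts in water (0 min), 204, 204 and 205 after 2 min, 197, 211 and 181 after 4 min, and 199, 190.1 and 189 after 8 min of H2O2. The libraries of the 4 time points overlapped, and the widest spread was between the replicates at 0 min. The log2 change at 8 min was -0.08 (95% interval from -0.30 to 0.14), with an adjusted p of 0.787 in limma. For each of the 6 genes the interval at 8 min leaves room for some change. Its upper end was at most 1.36-fold, and its lower end was at least 0.801-fold, the value for PAT1.

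**Figure D2:**
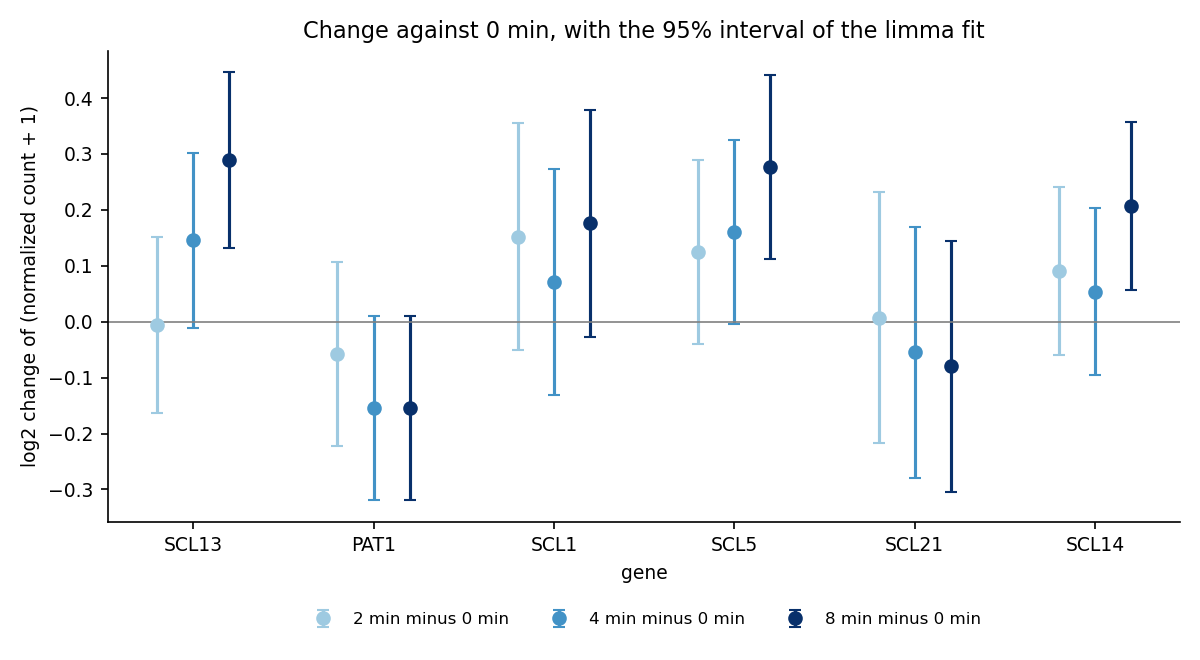
Log2 change of (normalized count + 1) of the 6 genes at 2, 4 and 8 min against 0 min; points are limma estimates from 3 libraries a group and bars are their 95% intervals. At 8 min the intervals of SCL13, SCL5 and SCL14 lie above 0 (unadjusted), those of SCL1, PAT1 and SCL21 include it, and no change passed the adjusted threshold.

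The balance between the 6 transcripts was compared within each library, where the size factor is the same for both genes of a ratio. Of the 15 pairs, 8 had ratios at 8 min that did not overlap those at 0 min. These were exactly the 8 pairs that join PAT1 or SCL21 with SCL13, SCL1, SCL5 or SCL14. The split restates the sign of each gene's own log2 change at 8 min in the same libraries. PAT1 was at -0.15 and SCL21 at -0.08, and SCL13, SCL1, SCL5 and SCL14 were between 0.18 and 0.29. The 15 ratios share genes, so they are not independent. Among the 465 pairs that can be made of the 31 GRAS genes tested, 32.5% did not overlap. The exact permutation test over 3 against 3 libraries cannot go below p = 0.1, which each of the 8 pairs reached, and adjusted over the 15 pairs it was 0.1875, so none passed.

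The log2 ratio of SCL13 to PAT1 was -0.34, -0.49 and -0.49 in the 3 libraries at 8 min, against -1.01, -0.86 and -0.79 at 0 min. Its mean was -0.44 ± 0.09 at 8 min and -0.89 ± 0.11 at 0 min (SD, n = 3 each), a difference of 0.44. The log2 ratio of PAT1 to SCL5 was -0.31, -0.47 and -0.13 at 8 min, against 0.23, 0.14 and 0.01 at 0 min, so that PAT1 had fewer counts than SCL5 in each library at 8 min and more in each library at 0 min. Ratios between genes whose own changes at 8 min had the same sign overlapped. PAT1 to SCL21 was 2.17 ± 0.05 at 8 min and 2.24 ± 0.13 at 0 min. SCL5 to SCL14 was 0.17 ± 0.10 at 8 min and 0.10 ± 0.05 at 0 min (log2 ratios, SD, n = 3 each).

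**Figure D3:**
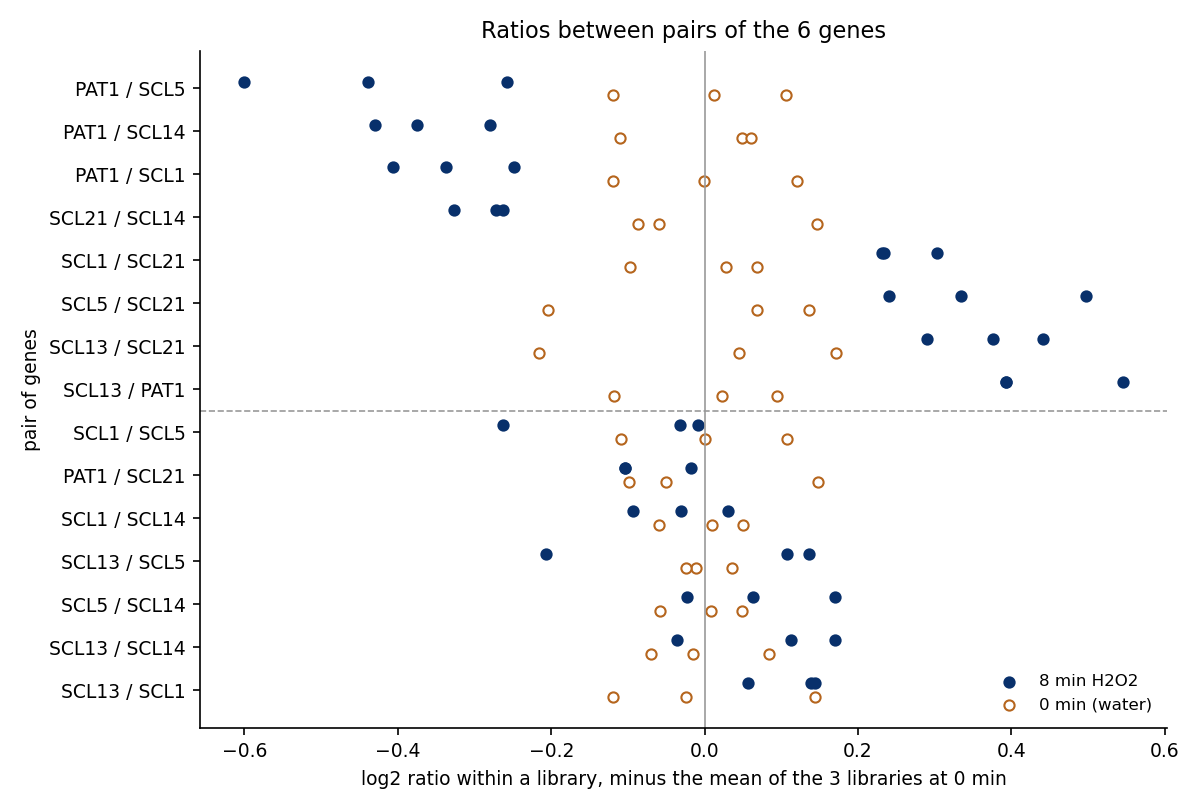
Log2 ratios of the 15 pairs of genes within each library, minus the mean of the 3 libraries at 0 min; filled points are the 3 libraries at 8 min of H2O2, open points those at 0 min, and points that coincide cover each other. The 8 pairs above the dashed line, each with PAT1 or SCL21 on one side only, do not overlap between the time points, and the 7 pairs below it do.

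Levels of different genes were compared per length, as normalized counts per kb of exon. At 8 min SCL5 was highest at 449.8 ± 40.9 per kb, followed by PAT1 at 388 ± 11.2, SCL14 at 337 ± 9.92, SCL1 at 318 ± 17.6, SCL13 at 246 ± 18.7 and SCL21 at 103 ± 2.77 (SD, n = 3). At 0 min PAT1 was highest at 432 ± 17.7 per kb, followed by SCL5 at 371 ± 26.9, SCL14 at 292 ± 23.1, SCL1 at 282 ± 30.04, SCL13 at 201 ± 11.7 and SCL21 at 109.9 ± 13.96. The ranges of SCL14 and SCL1 over the libraries overlapped at both times and by themselves do not order these genes. Within each library, the log2 ratio of SCL1 to SCL14 was -0.22 ± 0.06 at 8 min and -0.19 ± 0.06 at 0 min (SD, n = 3 each). That ratio is of normalized counts, not divided by exon length. The ranges of the other neighbours in the order were separate. The ranges of PAT1 and SCL5 had opposite orders at 8 and 0 min, though neither gene's change passed the threshold. SCL5 spanned 406 to 488 per kb at 8 min and PAT1 375 to 396, whereas at 0 min SCL5 spanned 352 to 402 and PAT1 414 to 449. At 2 min the ranges of these genes overlapped, with SCL5 between 399 and 409 per kb and PAT1 between 395 and 435. They also overlapped at 4 min, with SCL5 between 403 and 425 per kb and PAT1 between 348 and 421.

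Across all 12 libraries, the log2 values of SCL5 and SCL14 correlated with Pearson's r = 0.82, those of SCL13 and SCL5 with 0.71 and those of SCL13 and SCL14 with 0.68. PAT1 went against this set, with r = -0.51 to SCL13 and -0.52 to SCL5, and had r = 0.51 with SCL21. SCL1 lay between these genes: its r was 0.56 to SCL5 and 0.63 to SCL14, but also 0.51 to SCL21 and 0.13 to PAT1. SCL21 was at 0.10 to SCL14, so the correlations did not split the 6 genes along the same lines as the ratios. These coefficients are descriptions over libraries that share their time points and size factors.

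Of all genes tested, those whose log2 values followed SCL13 most closely over the 12 libraries were AT1G05575, an uncharacterized protein (r = 0.91), AT3G29000, a calcium-binding EF-hand family protein (0.90), and AT5G66675, a putative transmembrane protein (0.90). These 3 were themselves enhanced at 8 min, by 1.51, 2.05 and 0.47 on the log2 scale (limma, adjusted p = 0.000513, 0.000668 and 0.00878). For AT5G66675 the call was lost without replicate 1 at 8 min (adjusted p = 0.0616). AT3G29000 was also enhanced at 4 min, by 1.33 (limma, adjusted p = 0.0344), a call that was lost when any of 6 libraries was left out, with adjusted p up to 0.185. Between 8 and 2 min of H2O2 these 3 genes differed by 1.24, 1.95 and 0.40 on the log2 scale (limma, adjusted p = 0.00455, 0.00185 and 0.0474). The last of these calls, for AT5G66675, was lost when any of 10 libraries was left out, with adjusted p up to 0.243. They were picked by their likeness to SCL13 in the same libraries. The 3 genes nearest to PAT1 were EYE (AT5G51430), a subunit of the Golgi tethering complex COG, with r = 0.98, AT2G32730, a 26S proteasome regulatory subunit, with 0.95, and AT3G50340 with 0.94. None of these 3 passed the threshold at 8 min, where their log2 changes were -0.15, -0.14 and -0.63.

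The genes nearest to SCL5 were GEX1 (AT5G55490), known from gametes, with r = 0.95, AT1G74450, a BPS1-like protein, with 0.89, and MEF8 (AT2G25580), a mitochondrial RNA editing factor, with 0.88. Of these, AT1G74450 was enhanced at 4 and 8 min, by 0.76 and 0.89 on the log2 scale (limma, adjusted p = 0.0125 and 0.00167). Its call at 4 min was lost without replicate 1 or replicate 3 of that time (adjusted p = 0.0725 and 0.0622). SCL14 was followed by RECQL2 (AT1G31360), a RecQ DNA helicase (0.90), AR791 (AT1G52080; 0.88) and AT2G34730 (0.88). SCL1 was followed by AT1G18900, AT5G53440 and AT5G53050 (0.92 to 0.91), and SCL21 by AT3G51000, AT1G11480 and AT4G39280 (0.92 to 0.91). None of the genes nearest to SCL14, SCL1 or SCL21 passed the threshold at any time.

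The 6 genes lie at 6 separate loci of the TAIR10.1 assembly. SCL13 is at chr4:9660593-9663809 on the minus strand with 2 annotated transcripts, PAT1 at chr5:19522238-19524788 on the minus strand with 4, and SCL5 at chr1:18737063-18739649 on the minus strand with 3. SCL1 at chr1:7508701-7511801 on the plus strand, SCL21 at chr2:1720361-1722604 on the minus strand and SCL14 at chr1:2313581-2316507 on the minus strand have 1 transcript each. The values are per gene, so transcripts of a gene were not told apart. No stretch of 50 bases of any of the 6 genes' transcripts was found on the same strand in another gene's transcripts, so reads of close relatives could be told apart at that length. On the opposite strand, exons of SCL1 overlap SWEET1 (AT1G21460) by 52 bases, 2.03% of its exon length, and those of SCL21 overlap ZAP1 (AT2G04880) by 166 bases, 8.91%, and AT2G04900 by 110 bases, 5.90%. The library kit keeps the strand, but whether the counting used it is not stated.

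The 250 bases before the annotated gene start are shown for the 3 genes with an unadjusted p under 0.05 at 8 min, and for AT3G46600, the GRAS gene outside the set that was enhanced at 8 min. They were read from TAIR10.1 with RefSeq gene starts, in the direction of the gene. Capitals mark matches, on either strand, to TTGAC (the W-box core read by WRKY factors), TGACG (the core read by TGA factors), CGCGT (the core read by calmodulin-binding CAMTA factors) or CACGTG (the G-box). SCL13 is from chr4:9663810-9664059, SCL5 from chr1:18739650-18739899 and SCL14 from chr1:2316508-2316757, all on the minus strand, and AT3G46600 is from chr3:17157335-17157584 on the plus strand.
SCL13: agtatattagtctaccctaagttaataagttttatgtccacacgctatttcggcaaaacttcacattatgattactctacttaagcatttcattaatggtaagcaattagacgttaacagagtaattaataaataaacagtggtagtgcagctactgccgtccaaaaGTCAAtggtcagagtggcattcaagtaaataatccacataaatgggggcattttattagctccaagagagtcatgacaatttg
SCL5: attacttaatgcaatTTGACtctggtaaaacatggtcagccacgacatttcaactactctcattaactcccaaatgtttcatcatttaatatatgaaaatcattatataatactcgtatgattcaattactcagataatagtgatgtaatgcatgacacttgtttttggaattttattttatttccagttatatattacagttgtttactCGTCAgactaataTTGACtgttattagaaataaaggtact
SCL14: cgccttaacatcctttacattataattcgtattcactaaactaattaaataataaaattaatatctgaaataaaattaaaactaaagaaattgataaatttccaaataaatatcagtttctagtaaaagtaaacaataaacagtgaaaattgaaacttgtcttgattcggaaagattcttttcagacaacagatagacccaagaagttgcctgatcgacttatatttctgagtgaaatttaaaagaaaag
AT3G46600: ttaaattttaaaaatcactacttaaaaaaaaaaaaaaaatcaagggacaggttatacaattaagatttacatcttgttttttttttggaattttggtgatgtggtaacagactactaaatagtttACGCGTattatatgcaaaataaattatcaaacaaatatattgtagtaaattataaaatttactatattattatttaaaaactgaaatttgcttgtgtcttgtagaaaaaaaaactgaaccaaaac
SCL13 held 1 W-box core, 83 bases before the gene start. SCL5 held W-box cores 235 and 27 bases before the start and a TGA core 40 bases before it, the only TGA core among the 6 genes. SCL14, the partner of TGA factors, held none of the 4 motifs. AT3G46600 held CGCGT on both strands in the palindrome ACGCGT, 125 bases before its start, a core that none of the 6 genes held. PAT1 held 2 W-box cores, SCL1 held 1, and SCL21 held none of the 4 motifs. The W-box core was present in 45.3% of 19383 promoters of this length, the TGA core in 19.3%, the CAMTA core in 7.39% and the G-box in 7.56%. A match is a description of the letters only.

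The other GRAS genes place the 6 in their family. Of 27 listed, 25 have deposited values and were tested: 1 was enhanced at 8 min and 0 were lowered, against 1.29% of all genes higher and 0.0513% lower, and 0 passed at 2 or 4 min (limma). At an unadjusted p under 0.05 in limma, 0 of the 25 differed at 2 min, and 1 was higher and 3 lower at 4 min. At 8 min 3 were higher and 2 lower. By the same rule 8.6% of all genes were higher and 7.02% lower at 4 min, and 8.03% and 5.69% at 8 min. With the 6 genes, 31 GRAS transcripts were thus tested, of which AT3G46600 alone was enhanced at 8 min. AT3G46600, annotated as a GRAS family transcription factor, had 1293, 1092 and 1234 normalized counts in water (0 min), 1356, 1288 and 1213 after 2 min, 1803, 1398 and 1447 after 4 min, and 2294, 2410.4 and 2009 after 8 min of H2O2. Its 3 libraries at 8 min stood clear of those at the other times.

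The log2 change of AT3G46600 was 0.89 at 8 min (95% interval from 0.67 to 1.11; limma, adjusted p = 0.000351) and 0.80 between 8 and 2 min (adjusted p = 0.0015). The lower end of its interval at 8 min, 0.67, was above the upper end for each of the 6 genes, at most 0.45. Within each library, its log2 ratio to SCL13 was 1.803 ± 0.18 at 8 min and 1.203 ± 0.14 at 0 min, and its ratio to PAT1 was 1.36 ± 0.17 at 8 min and 0.32 ± 0.07 at 0 min (SD, n = 3 each). AT3G46600 was picked for its call at 8 min in these libraries, so its ratios restate that call and are given without a test.

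AT5G59450, also annotated as a GRAS family transcription factor, passed between 8 and 2 min, with 129 ± 4.36 normalized counts at 8 min and 76.9 ± 6.49 at 2 min (SD, n = 3 each), a log2 change of 0.74 (limma, adjusted p = 0.0333). This call was lost when any of 7 libraries was left out, with adjusted p up to 0.206 in limma. Against 0 min its log2 change at 8 min was 0.51 with an adjusted p of 0.127. The DELLA repressors of gibberellin signaling, which are the best known GRAS proteins, did not pass at 8 min: their log2 changes were -0.18 for GAI, 0.06 for RGA, -0.13 for RGL1, -0.25 for RGL2 and -0.47 for RGL3, and the smallest adjusted p was 0.205 in limma. SCR and SHR, which pattern the root ground tissue, were at -0.03 and -0.06, also not past the threshold. The median log2 change of the 25 other GRAS genes at 8 min was -0.07, against 0.19 for the 6 genes and -0.00 for all genes tested.

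**Figure D4:**
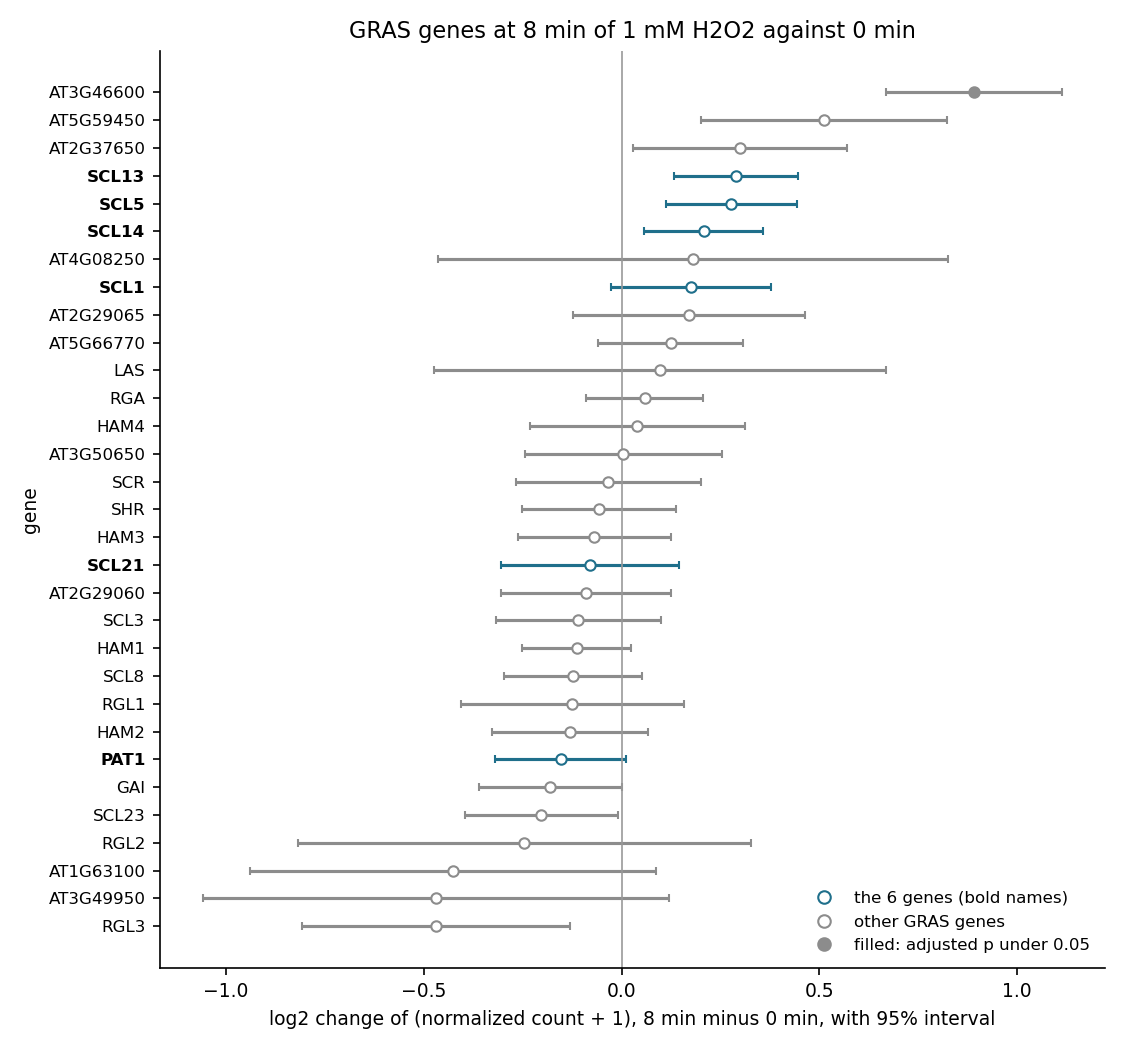
Log2 change of (normalized count + 1) at 8 min of H2O2 against 0 min for the 31 GRAS genes tested, with 95% intervals from limma (3 libraries a group); names of the 6 genes are bold and a filled point marks an adjusted p under 0.05. AT3G46600, at 0.89, is the only filled point, and SCL13, SCL5, SCL14 and SCL1 lie between 0.18 and 0.29.

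The phytochrome pathway, in which PAT1, SCL21 and SCL13 act, held no called gene in the limma fit of all 12 libraries. Of 25 listed genes, from the photoreceptors to the output gene CHS, all were tested, and 0 were enhanced and 0 lowered at 2, 4 or 8 min by limma. At an unadjusted p under 0.05, 3 were higher and 4 lower at 2 min, 5 higher and 4 lower at 4 min, and 4 higher and 4 lower at 8 min. By the same rule 6.36% of all genes were higher and 5.68% lower at 2 min, 8.6% and 7.02% at 4 min, and 8.03% and 5.69% at 8 min. The higher ones at 8 min were HFR1, a bHLH factor of far-red signaling, at 0.48, and SPA1, SPA3 and SPA4, which work with the ubiquitin ligase COP1, at 0.23, 0.38 and 0.42. The lower ones at 8 min were the far-red receptor gene PHYA at -0.28, the growth-promoting bHLH factors PIF4 at -0.45 and PIF5 at -0.30, and CHS, which encodes chalcone synthase of flavonoid synthesis, at -0.57 (log2 changes). The smallest adjusted p at any time against 0 min was 0.0935 in limma, for PIF1 at 4 min (log2 change of -0.40). With DESeq2, PIF1 and PIF4 were lowered at 4 min (log2 changes of -0.39 and -0.55, adjusted p = 0.0326 and 0.0353). Without replicate 2 at 8 min, the deepest library, limma called PIF4 lowered and SPA3 enhanced at 8 min (adjusted p = 0.00877 and 0.0214). PIF4 was then also lowered at 4 min (limma, adjusted p = 0.0235), as it was without replicate 1 at 8 min (0.04999). In separate limma fits of only the groups compared, PIF4 was lowered at 2 and 4 min (log2 changes of -0.59 and -0.55, adjusted p = 0.0435 and 0.0314).

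The class II TGA factors and detoxification genes, the setting in which SCL14 is known, contained 2 enhanced genes. Of 15 listed, 14 have deposited values and 13 were tested. At 8 min 2 were enhanced and 0 lowered, against 1.29% of all genes higher and 0.0513% lower, and 0 passed at 2 or 4 min (limma). At an unadjusted p under 0.05 in limma, 0 of the 13 differed at 2 min, and 2 were higher and 0 lower at 4 min. At 8 min 5 were higher and 0 lower. By the same rule 8.6% of all genes were higher and 7.02% lower at 4 min, and 8.03% and 5.69% at 8 min. OPR1, an oxophytodienoate reductase, was at 632, 551 and 523 normalized counts at 8 min, against 253, 184 and 204 at 0 min, which is 1.42 higher on the log2 scale (limma, adjusted p = 0.000247). NAC102, a NAC transcription factor studied in low-oxygen stress, was at 1218, 1113 and 914 normalized counts at 8 min, against 648, 451 and 543 at 0 min, which is 0.99 higher on the log2 scale (limma, adjusted p = 0.00273).

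In both genes the 8 min libraries stood above all those at 0 min, and both also passed between 8 and 2 min, with log2 changes of 1.23 for OPR1 and 0.74 for NAC102 (limma, adjusted p = 0.00146 and 0.0372). The call for NAC102 between 8 and 2 min was lost when any of 6 libraries was left out, with adjusted p up to 0.217 in limma. The transcripts of TGA2, TGA5 and TGA6, the DNA-binding partners of SCL14, were at 0.11, 0.09 and 0.17 at 8 min on the log2 scale, none past the threshold. The median log2 change of the 13 genes was 0.17 at 8 min. GSTU7, a glutathione transferase gene, had a log2 change of 1.02 with an adjusted p of 0.211 in limma, from 42.5 normalized counts on average at 8 min and 20.5 at 0 min.

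Of 6 genes listed as partners in wound regeneration, 5 have deposited values and were tested. ERF115, named above with PAT1, SCL5 and SCL21, has no deposited value and was not tested. None of the 5 passed at any time in limma. With limma, 2 had an unadjusted p under 0.05 after 2 min, the same 2 after 4 min, and 0 after 8 min. Both had the higher value in H2O2, where 6.36% of all genes were higher and 5.68% lower after 2 min, and 8.6% and 7.02% after 4 min. They were AT5G61890, with log2 changes of 1.32 at 2 min and 1.10 at 4 min, and WIND1, a factor of wound-induced dedifferentiation, with 0.27 at 2 min and 0.29 at 4 min. The smallest adjusted p was 0.192. The median log2 change of the 5 genes at 8 min was 0.05.

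Markers of 4 cell types were read in the same libraries. At an unadjusted p under 0.05, 1 of the 7 markers was higher at 8 min (FAMA) and 3 were lower (CAB2, EXP7 and CASP1), against 8.03% of all genes higher and 5.69% lower, and none passed after adjustment at any time in limma. CAB2, a chlorophyll-binding protein gene of leaf cells, was between 30443 and 47710 normalized counts in the 9 libraries with H2O2, against 51849 to 65234 at 0 min, with no time past the threshold (smallest adjusted p = 0.106 in limma), whereas RBCS1A, the other leaf marker, overlapped between the 4 time points. The endodermis marker CASP1 was between 384 and 601 normalized counts in the 9 libraries with H2O2, against 573 to 672 at 0 min (smallest adjusted p = 0.0598 in limma, at 4 min). FAMA, a bHLH factor of the guard cell lineage, was between 169 and 223 normalized counts at 8 min, against 117 to 166 at 0 min. Its log2 change was 0.51 at 8 min and 0.44 at 2 min (limma, adjusted p = 0.248 and 0.370), in the direction of SCL13, SCL5 and SCL14 and larger in size, whereas MYB60, the other guard cell marker, was at 0.09 at 8 min. EXP7, an expansin gene of root hairs, was between 143 and 336 normalized counts at 8 min, against 307 to 425 at 0 min, with a log2 change of -0.64 (limma, adjusted p = 0.263). At 2 min it was between 211 and 289 normalized counts. COBL9, the other root hair marker, was at -0.44 at 8 min on the log2 scale, and its libraries overlapped. The part of tissue makeup in the values of the 6 genes was not tested.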

How the data were processed

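The deposited values are normalized counts, a signal per gene and library: per the study's methods the authors checked single-end reads of a stranded mRNA library with FastQC 0.11.7, aligned them to TAIR10 with STAR 2.4.0.1 and normalized with DESeq2 1.20.0. The counting program, and whether it used strand, are not given in the sources used here. In each library 100% of values were whole multiples of a common step (relative tolerance 1e-06), and reads were recovered from it. All value columns were matched to samples by their labels.

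The 6 genes, the gene lists and the tests were chosen with earlier results of these data known. The genes named are the 6 members, list genes past the threshold or of defining role, and the 3 genes with the highest Pearson correlation to each member. Values were transformed to log2(normalized count + 1) and fitted in R 4.3.3 with limma 3.58.1 (variance trend, 12 libraries in 1 fit of time point) for genes with a mean of at least 10, with two-sided tests. P-values were adjusted by Benjamini-Hochberg over all genes of a comparison, and genes under 0.05 were called. The fit was tested on simulated data with planted changes larger than any seen in the 6 genes, so that test does not cover changes of their size. The lists name other GRAS genes, phytochrome signaling, class II TGA factors with detoxification genes, and partners in wound regeneration. The alternatives tried were edgeR 4.0.16 and DESeq2 1.42.0 on recovered reads, quantile normalization, pseudocounts of 0.1 and 5, a minimum mean of 0 or 50, a stricter adjusted p of 0.01, the replicate number as a block, fits of only the groups compared, and leaving out each library. Gene models and promoters came from RefSeq on TAIR10.1.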

Additional observations from a re-analysis of the deposited data

Results flagged for a closer look

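Of the 6 GRAS genes, the genes of the lists called in limma and the 18 genes nearest to the 6 over the libraries, 7 had a change that differed between 8 and 2 min of H2O2, tested as the difference of these times in the limma fit. None of them belongs to the 6 GRAS genes. AT3G29000 was higher at 8 min than at 2 min by 1.95 on the log2 scale (3 libraries each) and AT1G05575 by 1.24. OPR1 was higher by 1.23, AT3G46600 by 0.80, AT5G59450 by 0.74, NAC102 by 0.74 and AT5G66675 by 0.40. Over all genes tested, 0.626% were higher and 0.0103% lower between 8 and 2 min (limma, adjusted p under 0.05). AT3G29000, AT1G05575 and AT5G66675 were picked for their likeness to SCL13 in these libraries. OPR1, AT3G46600, AT5G59450 and NAC102 were included because limma had already called them in some comparison of these libraries, this one among them. The count of 7 therefore restates how the genes were picked. For AT5G59450 the call was lost when any of 7 libraries was left out, for NAC102 when any of 6 was and for AT5G66675 when any of 10 was, with adjusted p up to 0.206, 0.217 and 0.243 in limma.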

How the results depend on the processing

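The count of 0 of the 6 genes called at each time, in either direction, held under all 10 other settings and with each of the 12 libraries left out. For SCL13 at 8 min the adjusted p ranged over 0.0685 to 0.301 across settings and 0.054 to 0.365 across libraries left out, and for SCL5 over 0.066 to 0.341 and 0.0527 to 0.365. Small changes turned sign in places. For SCL21 at 2 min the log2 change was -0.0056 with DESeq2 and -9.59e-05 with edgeR. With 1 library left out, the log2 change ranged from -0.036 to 0.041 for SCL13 at 2 min, from -0.018 to 0.13 for SCL1 at 4 min, from -0.022 to 0.048 for SCL1 between 8 and 2 min, from -0.097 to 0.086 for SCL21 at 2 min, from -0.16 to 0.024 for SCL21 at 4 min, from -0.0064 to 0.11 for SCL14 at 4 min, from -0.052 to 0.2002 for AT3G29000 at 2 min, and from -0.0029 to 0.107 for AT5G66675 at 2 min; the cause was not tested. AT3G46600, OPR1 and NAC102 stayed enhanced at 8 min in all of these fits. Between 8 and 2 min, AT5G59450 missed the threshold with quantile normalization (adjusted p = 0.0605) and NAC102 in a separate fit (0.0551), and AT5G66675 with the replicate block (0.0892) and in a separate fit (0.168). In a separate fit AT5G66675 also missed it at 8 min (0.05400) and AT3G29000 at 4 min (0.0733). PIF4 was lowered at 8 min (adjusted p = 0.00877) and SPA3 enhanced (0.0214) without replicate 2 at 8 min, the deepest library.

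Replicate numbers showed no clear pairing of the libraries. Deviations from the time-point means correlated between -0.328 and 0.255 for same-numbered libraries of different times, and between -0.345 and 0.465 for different numbers. Of 12 libraries, 1 correlated best with its own number at each of the other times. With the replicate number as a block, 329 genes were higher at 8 min against 251 without it, and 356 against 147 at 4 min, the 6 genes still gave 0 calls, and OPR1 (adjusted p = 0.0361) and PIF4 (0.0361) passed at 4 min. DESeq2 called 374 genes higher at 8 min, 368 at 4 min and 53 at 2 min, against 0 in limma at 2 min, and the separate fits called 151 at 8 min and 41 at 2 min. Counting error was largest for SCL21, at most 7.23% of a value when averaged over the libraries of a time point, so depth limits that gene most.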
